A study of Mus musculus with 12 samples.

Results

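The genes described here encode paired forms of 4 subunits of cytochrome c oxidase, each of which can be made from either of 2 paralogous genes. They were chosen by symbol, among the complex IV subunits with a tissue-restricted paralog, and matched to Ensembl identifiers. Further forms, such as Cox6b2 and Cox8c, are counted below with the other subunits. All 8 of the paired genes were found among the 55450 genes of the count table. All 8 were among the 19276 genes with enough counts to be tested. RNA was sequenced from tibialis anterior (TA) muscle of wild-type (WT) mice of the 129Pas background at the embryonic stage E18.5 and at 2 and 7 weeks (wks) of age. There were 4 mice at each age and 1 library for each mouse. The 3 groups share the strain, the genotype and the muscle, carry no transgene and received no treatment, and the series was made to follow muscle after birth.

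Cytochrome c oxidase, or complex IV, is the last enzyme of the respiratory chain and passes electrons from cytochrome c to oxygen. Its catalytic core is encoded by mitochondrial DNA, and the smaller subunits around the core are encoded in the nucleus. Several of these have a heart and skeletal muscle form and a second form, called the liver, fetal or ubiquitous form, that most tissues use. For the COX6a subunit the muscle form is Cox6a2 and the general form Cox6a1. For COX7a they are Cox7a1 and Cox7a2, and for COX8 they are Cox8b and Cox8a. COX4 differs in that the general form, Cox4i1, is the form of muscle too. Its paralog Cox4i2 is known from lung and from cells of small vessels, and responds to low oxygen.

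On GRCm38.p6, Cox6a2 lies on the minus strand of chromosome 7 from 128205435 to 128206366, and Cox6a1 on the minus strand of chromosome 5 from 115345652 to 115348958. Cox7a1 lies on the plus strand of chromosome 7 from 30184171 to 30186030, and Cox7a2 on the minus strand of chromosome 9 from 79755241 to 79771422. Cox8b lies on the minus strand of chromosome 7 from 140898942 to 140900446, and Cox8a on the minus strand of chromosome 19 from 7215158 to 7217616. Cox4i1 lies on the plus strand of chromosome 8 from 120668225 to 120674209, and Cox4i2 on the plus strand of chromosome 2 from 152753916 to 152765039. All 3 muscle forms are thus on chromosome 7. The forms of a pair had no stretch of at least 100 bases at 90% identity in their transcripts, so reads of one form are not readily taken for the other.

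The sequences before the start sites are shown for both forms of COX7a and of COX8, since in these pairs the muscle form and the general form moved apart with age. The RefSeq promoter table (GRCm38.p6) held 5 of the 8 genes. Cox4i1, Cox4i2 and Cox6a2 had no entry. Each sequence holds the 250 bases before the start site of the gene's entry, 5′ to 3′ in the direction of the gene. The windows are chr7:30183921-30184170 on the plus strand for Cox7a1, and on the minus strand chr7:140900447-140900696 for Cox8b, chr9:79759854-79760103 for Cox7a2 and chr19:7217617-7217866 for Cox8a. The Cox7a2 window lies inside the span given above for that gene, so its start site is an internal one. The other windows abut the outer ends of their genes. Capitals mark matches, on either strand, to the TATA box, CCAAT box, GC box, E-box, ETS site, ERR half-site, NRF1 site or MEF2 site.
Cox7a1: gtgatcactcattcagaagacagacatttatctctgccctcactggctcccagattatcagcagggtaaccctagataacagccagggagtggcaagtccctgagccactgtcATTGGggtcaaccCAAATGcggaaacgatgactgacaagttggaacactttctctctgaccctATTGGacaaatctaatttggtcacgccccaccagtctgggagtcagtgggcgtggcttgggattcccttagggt
Cox8b: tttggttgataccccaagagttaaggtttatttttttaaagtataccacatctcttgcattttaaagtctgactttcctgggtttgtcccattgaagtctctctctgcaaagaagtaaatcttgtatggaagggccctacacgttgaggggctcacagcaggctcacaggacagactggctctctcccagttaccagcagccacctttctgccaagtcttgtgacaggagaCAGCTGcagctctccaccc
Cox7a2: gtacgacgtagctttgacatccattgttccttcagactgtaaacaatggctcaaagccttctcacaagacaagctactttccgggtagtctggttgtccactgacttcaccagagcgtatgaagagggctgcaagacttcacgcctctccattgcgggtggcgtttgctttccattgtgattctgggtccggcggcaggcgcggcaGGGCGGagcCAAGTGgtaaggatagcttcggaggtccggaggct
Cox8a: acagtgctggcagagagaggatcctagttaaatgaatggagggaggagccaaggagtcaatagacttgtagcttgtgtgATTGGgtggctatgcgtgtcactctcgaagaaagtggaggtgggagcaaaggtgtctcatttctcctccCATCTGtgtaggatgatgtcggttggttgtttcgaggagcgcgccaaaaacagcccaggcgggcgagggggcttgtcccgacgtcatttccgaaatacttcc

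The windows of the muscle forms held few CpG dinucleotides, 4 for Cox7a1 and 1 for Cox8b, against 14 for Cox7a2, 11 for Cox8a and 26 for Cox6a1. The median over all 32851 promoters of the table was 6. The Cox8b window had 1 match, an E-box reading CAGCTG whose first base lies at position -19 from the start site. The letters CAGCTG occur in 13.0% of all promoters of this length, and an E-box of any kind (CANNTG), which that match also is, in 66.2%. Cox7a1 had a CCAAT box, read on the other strand, at -137 and another at -74, and an E-box at -124. A CCAAT box occurs in 33.8% of all promoters. Cox7a2 had a GC box at -44 and an E-box at -35, and Cox8a a CCAAT box at -171 and an E-box at -102. The GC box (GGGCGG) occurs in 32.7% of promoters. The window of Cox6a1, which is not printed, had a pair of NRF1 sites at -162 and -117, a motif (GCGCA and GCGC with any base between) in 3.74% of all promoters. It had an ETS site (CTTCCG) at -16, a motif in 13.6% of promoters. It also had GC boxes at -139 and -44 and a CCAAT box at -74. No window of these 5 genes held the TATA box TATAAA, found in 12.4% of promoters. None held the ERR half-site AAGGTCA (4.08%) or the MEF2 site (2.92%). These are matches of letters only.

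Libraries held 63018968 to 123449246 counts, and the lowest count of any of the 8 genes in any library was 149, for Cox4i2. The labelled tissue was checked by 10 myofibre genes, whose levels summed to between 7860 and 17282 CPM (the counts of a gene scaled to a common library size) in the E18.5 libraries. The sums ranged from 165857 to 207952 CPM among the 2 wks libraries and from 204138 to 247429 CPM among the 7 wks libraries. Of all counts in a library, 3.27% to 7.58% (E18.5), 7.81% to 10.3% (2 wks) and 12.9% to 16% (7 wks) fell on the mitochondrial genome. Some libraries stood apart. In E18.5 replicates 3 and 4 a list of 8 adipocyte genes summed to 823 and 1675 CPM, against 16.6 and 22.1 CPM in replicates 1 and 2 and 5.51 to 27.5 CPM at the later ages. These included Ucp1, the uncoupling protein of brown fat, at 224 and 923 CPM. In E18.5 replicate 1 and 7 wks replicate 1, genes with transcripts of at most 1000 bases lay below the mean of their age by a median of 0.34 and 0.38 on the log2 scale. All 8 genes described here have canonical transcripts within that length except Cox8b. Results that rest on these libraries are given with and without them.

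From E18.5 to 2 wks, 6 of the 8 genes rose, and edgeR and DESeq2 each called 0 of them as lower. These were the 3 muscle forms, both COX4 genes and Cox7a2, and Cox6a1 and Cox8a were not called. The test was edgeR's quasi-likelihood test over all genes, with a Benjamini-Hochberg adjusted p under 0.05. Of all genes tested, 65.7% were called in this interval, 31.5% as higher and 34.2% as lower. Of the 10 myofibre genes, 9 rose to 2 wks and 1 fell, with a median log2 change of 4.09. Their part in the rises of the 3 muscle forms was not tested. From 2 to 7 wks both tools called 0 of the 8 genes as higher, and 3 fell, namely Cox4i2, Cox6a1 and Cox8a (27.5% of all genes called, 13.5% higher and 13.9% lower). From E18.5 to 7 wks 6 rose and 2 fell (71.4% of all genes called, 34.3% higher and 37.1% lower). In neither interval did an uncalled gene of the 8 reach an unadjusted p under 0.05. CPM values below are scaled by TMM, a method that sets libraries on a common scale by the bulk of their genes. In bulk tissue, fewer cells of a type and less RNA per cell cannot be told apart. The plot of levels by age shows every mouse.

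**Figure D1:**
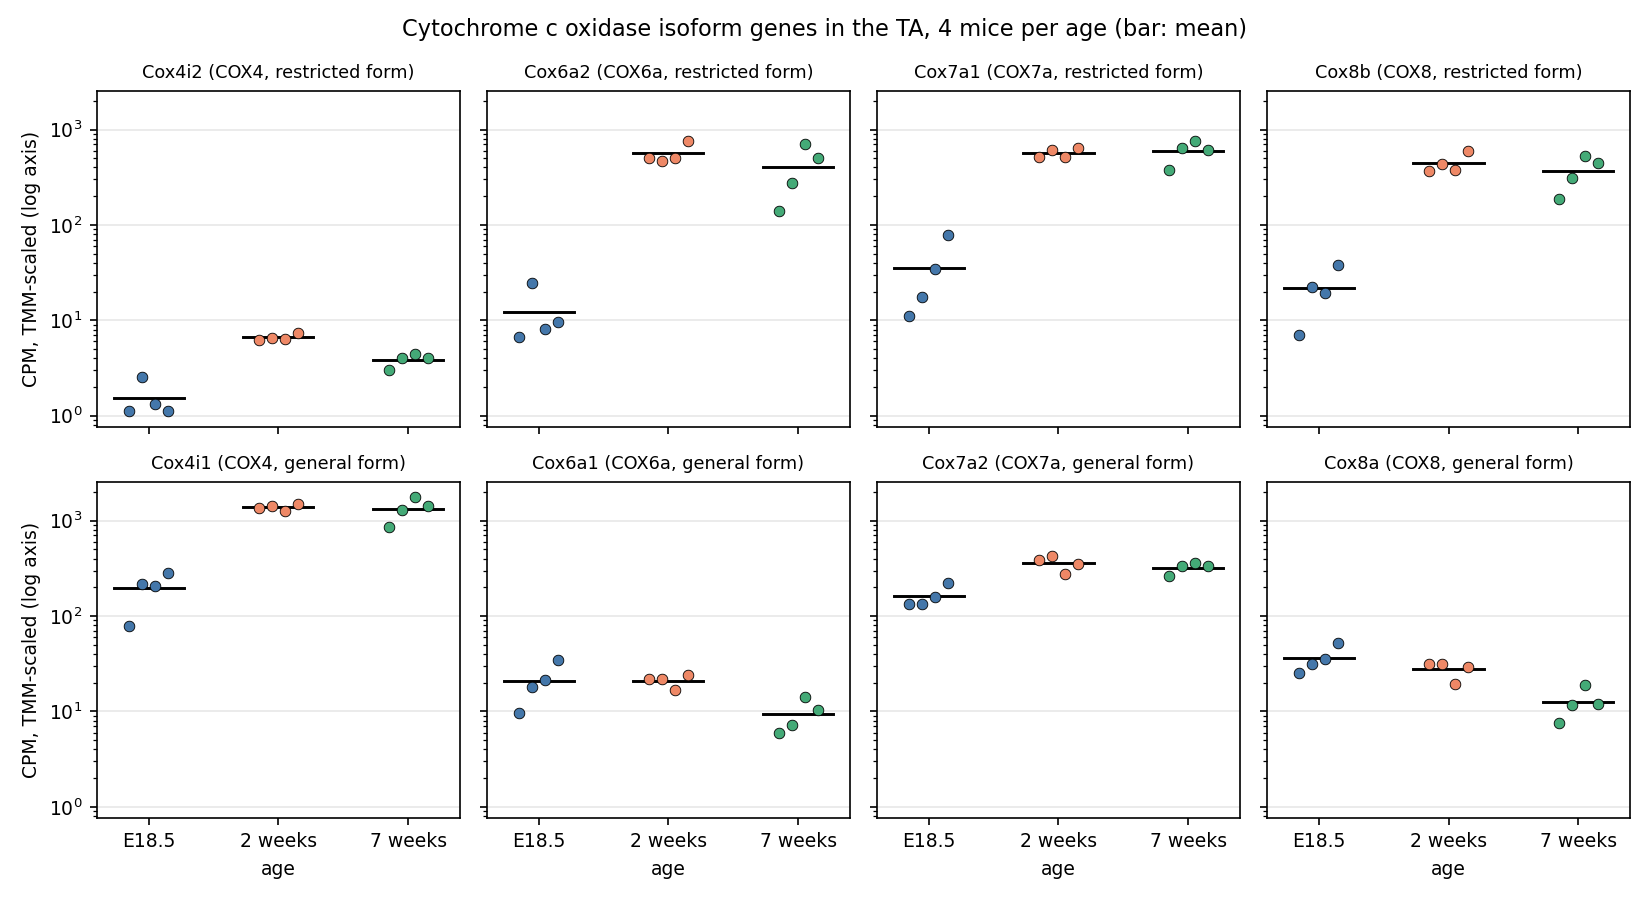
Levels of the 8 genes in each library (CPM, TMM-scaled, log axis) against age, with the tissue-restricted forms above and the general forms below; each point is 1 mouse and the bar is the mean of 4. The 3 muscle forms reach at most 78.7 CPM in any E18.5 library and at least 141 CPM in every later one, while Cox6a1 and Cox8a are lowest at 7 wks.

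Cox6a2, the muscle form of COX6a, measured 6.63, 24.8, 8.09 and 9.67 CPM in the 4 E18.5 mice. It measured 508, 466, 504 and 765 CPM at 2 wks and 141, 278, 713 and 503 CPM at 7 wks. Every mouse of the later ages was above every E18.5 mouse, and the 7 wks mice were spread the most. The mean was 12.3 ± 8.41 CPM (SD, n = 4) at E18.5 and 561 ± 138 CPM at 2 wks. The log2 fold change was 5.51 (SE 0.56, edgeR adjusted p = 2.54e-06), a factor of 45.6 and the largest of the 8 genes. The mean at 7 wks was 409 ± 252 CPM, and the change from 2 wks was -0.46 (SE 0.46, adjusted p = 0.494). E18.5 replicate 2, with the highest value of its age, also had the highest myofibre sum of its age, 17282 CPM against 7860 to 10153 CPM. Its part in the Cox6a2 value was not tested.

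Cox6a1, the general form, measured 9.73, 18.0, 21.6 and 34.3 CPM at E18.5, 22.0, 21.9, 16.6 and 23.9 CPM at 2 wks, and 5.98, 7.22, 14.2 and 10.3 CPM at 7 wks. The ranges at E18.5 and 2 wks overlapped, and the 7 wks mice were all below the 2 wks mice. The change to 2 wks was 0.01 (SE 0.33, adjusted p = 0.975) and the change from 2 to 7 wks -1.16 (SE 0.33, adjusted p = 0.0199). The fall after 2 wks was not called without 7 wks replicate 1 (-1.0, adjusted p = 0.0558) or replicate 2 (-1.05, adjusted p = 0.0618), nor after correction of every library for GC content (-0.73, adjusted p = 0.0588). A transcript of the long noncoding gene Gm58921, which is not in the table, matches 496 of the 571 bases of the Cox6a1 transcript at 92.7% identity. Reads shared with it could be missing from the Cox6a1 counts.

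Cox7a1, the muscle form of COX7a, measured 11.1, 17.4, 34.3 and 78.7 CPM at E18.5. It measured 516, 606, 517 and 641 CPM at 2 wks and 375, 640, 751 and 607 CPM at 7 wks. The E18.5 mice differed among themselves by a factor of 7.11, and the 2 libraries with adipocyte genes had the highest values. The means were 35.4 ± 30.5, 570 ± 63.5 and 593 ± 158 CPM. The rise to 2 wks was 4.01 (SE 0.51, adjusted p = 1.45e-05), a factor of 16.1, and the change after 2 wks 0.06 (SE 0.45, adjusted p = 0.939). Without E18.5 replicates 3 and 4 the rise was 5.32 (adjusted p = 6.41e-07).

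Cox7a2, the general form, was the least changeable of the genes that rose. It measured 134, 133, 158 and 221 CPM at E18.5, 385, 424, 275 and 351 CPM at 2 wks and 263, 332, 362 and 334 CPM at 7 wks. Every 2 wks mouse was above every E18.5 mouse, and the 2 later ages overlapped. The rise was 1.15 (SE 0.20, adjusted p = 0.000177), a factor of 2.22, and the change after 2 wks -0.15 (SE 0.19, adjusted p = 0.596). With libraries scaled to their total counts the rise was 0.24 (adjusted p = 0.312), so that its call rests on the scaling.

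Cox8b, the muscle form of COX8, measured 7.06, 22.4, 19.1 and 38.0 CPM at E18.5. It measured 365, 438, 379 and 593 CPM at 2 wks and 188, 313, 533 and 443 CPM at 7 wks. The E18.5 mice were again all below the others, and the 7 wks range enclosed all but the highest 2 wks mouse. The rise was 4.36 (SE 0.47, adjusted p = 3.73e-06), a factor of 20.5, followed by a change of -0.26 (SE 0.41, adjusted p = 0.663). Of the annotated exon bases of Cox8b, 51.5% overlap Psmd13, a proteasome subunit gene on the opposite strand with 4887 to 11536 counts per library. The kit keeps strand, but the strand setting of the counting is not given in the sources used here, so the level of Cox8b is uncertain.

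Cox8a, the general form, measured 25.1, 31.8, 35.3 and 52.6 CPM at E18.5, 31.7, 31.7, 19.4 and 29.1 CPM at 2 wks, and 7.52, 11.8, 18.8 and 12.1 CPM at 7 wks. All 7 wks mice were below all other mice, while the 2 earlier ages overlapped. The change to 2 wks was -0.37 (SE 0.27, adjusted p = 0.245), and from 2 to 7 wks Cox8a fell by 1.16 on the log2 scale (SE 0.28, adjusted p = 0.0079). The later fall was called in all 25 alternatives, with an adjusted p of 0.000832 to 0.0363. The change before 2 wks was called as a fall with total-count scaling (-1.29, adjusted p = 0.000804) and with the trend over GC content (-1.43) or length (-0.68) removed.

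Some fibroblast markers fell in the interval in which Cox6a1 and Cox8a fell, as did markers of other cell types. The summed level of 6 fibroblast genes was 4466 to 6128 CPM in the 2 wks mice and 971 to 4080 CPM in the 7 wks mice, against 5963 to 12271 CPM in the fetal mice. From 2 to 7 wks 3 of the 6 fell, the collagen genes Col1a1 at -2.20, Col3a1 at -1.78 and Col1a2 at -1.41. The other 3 were not called, Dcn at 0.14 among them. To 2 wks 3 fell, Pdgfra at -2.0, Lum at -1.75 and Dcn at -0.77. After 2 wks 4 of 6 nerve and Schwann cell, 4 of 6 red blood cell and 4 of 6 cartilage and bone genes also fell. So did 3 of 6 endothelial genes, and 0 genes of these lists rose. Among all genes tested, 13.9% fell in this interval and 13.5% rose. Of 10 myofibre genes 1 rose and 1 fell, of 4 epidermal genes 1 rose, and 0 of 8 adipocyte genes were called. The part of these markers in the values of Cox6a1 and Cox8a was not tested.

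Cox4i1 had the highest mean CPM of the 8 genes at each age, though not in E18.5 replicate 1, where Cox7a2 was higher. It measured 78.7, 218, 205 and 284 CPM at E18.5, 1374, 1443, 1251 and 1487 CPM at 2 wks and 862, 1297, 1774 and 1434 CPM at 7 wks. The later ages overlapped with each other and lay above every E18.5 mouse. The rise was 2.82 (SE 0.33, adjusted p = 8.53e-06), a factor of 7.07, and the change after 2 wks -0.05 (SE 0.31, adjusted p = 0.924). Of its exon bases 16.3% overlap Emc8 on the opposite strand, a gene with 839 to 2892 counts per library.

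Cox4i2 had the lowest CPM of the 8 in every library, at 1.13, 2.54, 1.34 and 1.11 CPM at E18.5, 6.27, 6.47, 6.38 and 7.30 CPM at 2 wks and 2.99, 3.99, 4.46 and 4.04 CPM at 7 wks. Its 3 ages did not overlap. It rose by 2.11 (SE 0.26, adjusted p = 1.37e-05) and then fell by 0.77 on the log2 scale (SE 0.26, adjusted p = 0.0382). The fall was called in 15 of 25 alternatives. It was not called when any 2 wks library, or any 7 wks library other than replicate 3, was left out (highest adjusted p = 0.0996).

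Most markers of vessel cells rose with Cox4i2 to 2 wks, and with TMM scaling they were mixed after it. The summed level of 8 pericyte and vascular smooth muscle genes was 352 to 450 CPM at E18.5, 1154 to 1295 CPM at 2 wks and 1079 to 1460 CPM at 7 wks. Of these genes, 7 rose to 2 wks, among them Rgs5 at 2.65 and Higd1b at 2.43. After 2 wks 2 fell, Cspg4 at -1.10 and Notch3 at -0.75, Abcc9 rose at 0.57, and 5 were not called. Among all genes tested, 31.5% rose and 34.2% fell to 2 wks, and 13.5% rose and 13.9% fell after it. With total-count scaling 5 of the 8 listed genes rose and 1 fell to 2 wks, and 0 rose and 5 fell after it. Of all 19276 genes, 2550 then rose and 11923 fell to 2 wks, and 948 rose and 5392 fell after it. The 6 endothelial genes summed to 343 to 495, 762 to 923 and 459 to 754 CPM. Their part in the values of Cox4i2 was not tested.

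The change before 2 wks was compared with the change after it, by a contrast of the 2 intervals in the same fit. It was positive and past the threshold for 6 of the 8 genes (38.4% of all genes called, 21.6% with a positive and 16.8% with a negative difference). For Cox6a2 the difference of the log2 changes was 5.97 (SE 0.78, adjusted p = 0.00013), for Cox8b 4.62 (SE 0.68, adjusted p = 0.000292) and for Cox7a1 3.95 (SE 0.74, adjusted p = 0.00149). For Cox4i1 it was 2.87, for Cox4i2 2.88 and for Cox7a2 1.3. With total-count scaling Cox7a2 was not called (0.75, adjusted p = 0.0988), which left 5 genes. For Cox6a1 it was 1.17 (SE 0.56, adjusted p = 0.11) and for Cox8a 0.79 (SE 0.47, adjusted p = 0.196), neither past the threshold. The difference of Cox6a1 was called without E18.5 replicates 3 and 4 (1.76, adjusted p = 0.0193), without E18.5 replicate 4 alone (1.52, adjusted p = 0.0305) and without 7 wks replicate 3 (1.45, adjusted p = 0.0475).

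Scaling bears on these directions. With total-count scaling the median log2 change of all genes was -1.02 to 2 wks, -0.38 from 2 to 7 wks and -1.37 over both, against -0.09, -0.03 and -0.09 with TMM. Of the genes called to 2 wks, 17.6% were then higher, against 47.9% with TMM. Of all 19276 genes tested, total-count scaling called 2550 higher and 11923 lower to 2 wks, and 2291 higher and 13297 lower over both intervals. Of the 8 genes, 5 then rose to 2 wks and 2 fell, Cox6a1 at -0.91 (adjusted p = 0.0208) and Cox8a. From E18.5 to 7 wks 4 then rose and 2 fell, and Cox4i2 (0.06, adjusted p = 0.844) and Cox7a2 (-0.28, adjusted p = 0.223) were not called. The 3 muscle forms and both COX4 genes rose to 2 wks under all 25 alternatives. The lowest change among these was 4.57 for Cox6a2, 3.08 for Cox7a1, 3.42 for Cox8b, 1.89 for Cox4i1 and 1.18 for Cox4i2.

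The ratio of the forms within a library needs no scaling. It was taken as log2 of the counts of the restricted form over those of the general form, with 0.5 added to each. Two-sided exact permutation tests compared 4 mice with 4, for 4 pairs in 3 age comparisons, and can give no p under 0.0286. For COX6a the log2 ratio was -0.55, 0.46, -1.41 and -1.83 at E18.5, 4.53, 4.41, 4.92 and 5.0 at 2 wks, and 4.56, 5.27, 5.65 and 5.61 at 7 wks. The general form had the higher count in 3 of the 4 fetal muscles, and the muscle form in all later ones. The ratio rose 46.9-fold to 2 wks (5.55 ± 0.53 SE on the log2 scale, higher in 16 of 16 pairs of mice, exact p = 0.0286, adjusted p = 0.0381 over the 12 tests). It then changed by 0.56 (SE 0.29, exact p = 0.114, adjusted p = 0.137).

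For COX8 the log2 ratio was -1.83, -0.50, -0.88 and -0.47 at E18.5, 3.52, 3.79, 4.28 and 4.35 at 2 wks, and 4.64, 4.73, 4.83 and 5.19 at 7 wks. The 3 ages did not overlap, so COX8 was the muscle pair whose ratio moved in both intervals. It rose to 2 wks by 4.91 on the log2 scale (SE 0.37, exact p = 0.0286, adjusted p = 0.0381). It rose a further 1.82-fold from 2 to 7 wks (0.86, SE 0.23, exact p = 0.0286, adjusted p = 0.0381), over an interval in which Cox8a was called lower and Cox8b was not called. That the later change differs between the pairs was not tested. For COX7a the ratio was -3.60, -2.93, -2.20 and -1.49 at E18.5, 0.42, 0.51, 0.91 and 0.87 at 2 wks and 0.51, 0.95, 1.05 and 0.86 at 7 wks. It was below 0 in every E18.5 mouse and above 0 in every later one, and rose 9.41-fold (3.23, SE 0.47, exact p = 0.0286, adjusted p = 0.0381). After 2 wks it changed by 0.16 (SE 0.17, exact p = 0.314).

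**Figure D2:**
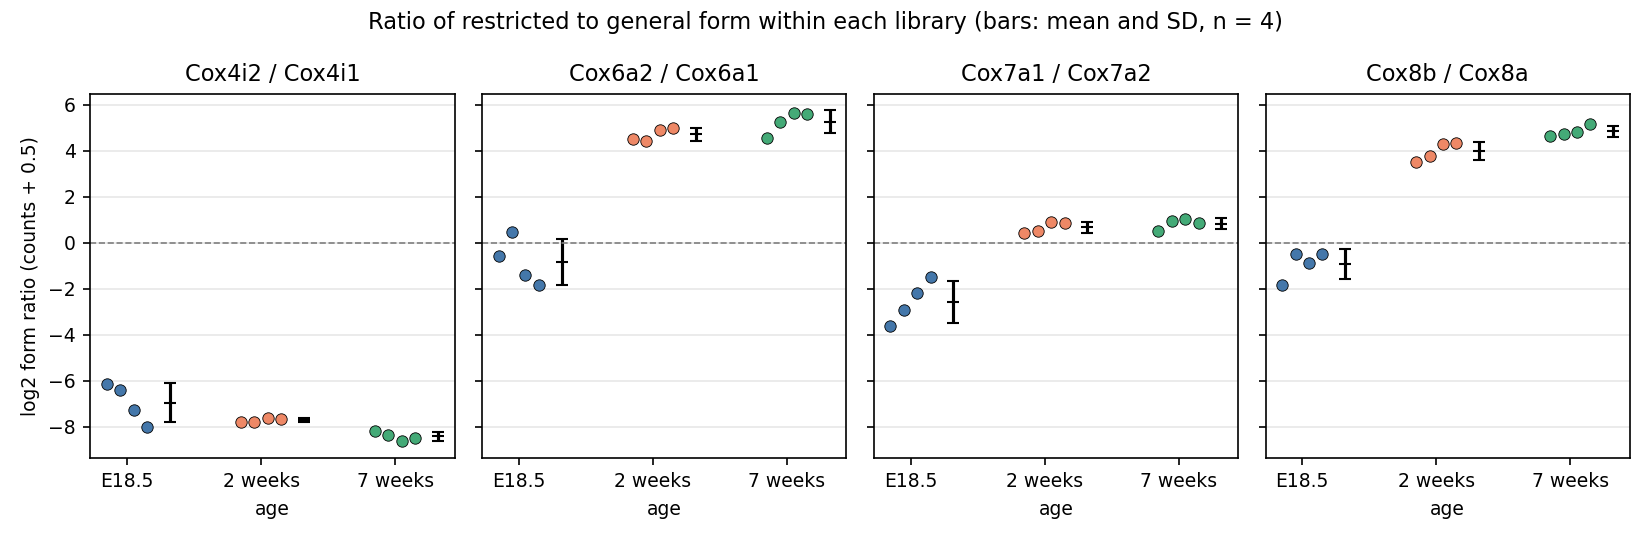
Log2 ratio of the restricted to the general form of each pair (counts, 0.5 added) against age; points are mice, and the bars beside them give the mean and SD of 4. The ratios of COX6a, COX7a and COX8 lie higher in all 2 wks mice than in all E18.5 mice, and that of COX4 goes from between -7.99 and -6.12 at E18.5 to between -8.63 and -8.17 at 7 wks.

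The COX4 ratio went the other way. It was -6.95 ± 0.85 (SD, n = 4) in the fetal mice, -7.71 ± 0.09 in the 2 wks mice and -8.40 ± 0.20 in the 7 wks mice. The change to 2 wks was -0.77 (SE 0.43, exact p = 0.143, adjusted p = 0.156) and from 2 to 7 wks -0.69 (SE 0.11, exact p = 0.0286, adjusted p = 0.0381). In each comparison of ages that passed, the later mice were all lower. The size of the switch to 2 wks was also compared between the muscle pairs, a test added after the ratios were seen and adjusted over 3 comparisons. COX6a moved more than COX7a by 2.32 (SE 0.90, exact p = 0.0286, adjusted p = 0.0429), and COX7a less than COX8 by 1.67 on the log2 scale (SE 0.32, exact p = 0.0286, adjusted p = 0.0429). COX6a and COX8 differed by 0.64 (SE 0.63, exact p = 0.4). Without E18.5 replicates 3 and 4 these differences were 0.82, -1.21 and -0.39, values given without a test.

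Levels of different genes were compared per kb of transcript, and here the length taken for a gene matters. Cox7a2 measures 5914 bases over the union of its exons but 814 bases in its canonical transcript, and Cox4i1 3144 and 783 bases. Cox8b measures 2389 bases over the union and 2149 in its canonical transcript, but the median of its 7 coding transcripts is 598 bases. A length that short would raise its level and share, and was not used. Over the exon union, Cox6a2 made up 37.8% ± 16.1 (SD, n = 4) of the COX6a pair at E18.5. The share was 96.4% ± 0.688 in the 2 wks mice and 97.5% ± 0.948 in the 7 wks mice. With canonical transcripts the shares were 33.3%, 95.6% and 96.9%. Cox8b made up 17.1%, 85.3% and 91.4% of its pair over the exon union, and 12.7%, 80.3% and 88.2% with canonical transcripts. For Cox7a1 the choice moved the shares more, from 61.7%, 94.0% and 94.6% over the union to 25.2%, 74.6% and 76.7% with canonical transcripts. Which form led at E18.5 thus depends on the length for COX7a, while Cox7a1 led at 2 and 7 wks with either length. Cox4i2 made up at most 3.26% of its pair in any mouse with either length.

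**Figure D3:**
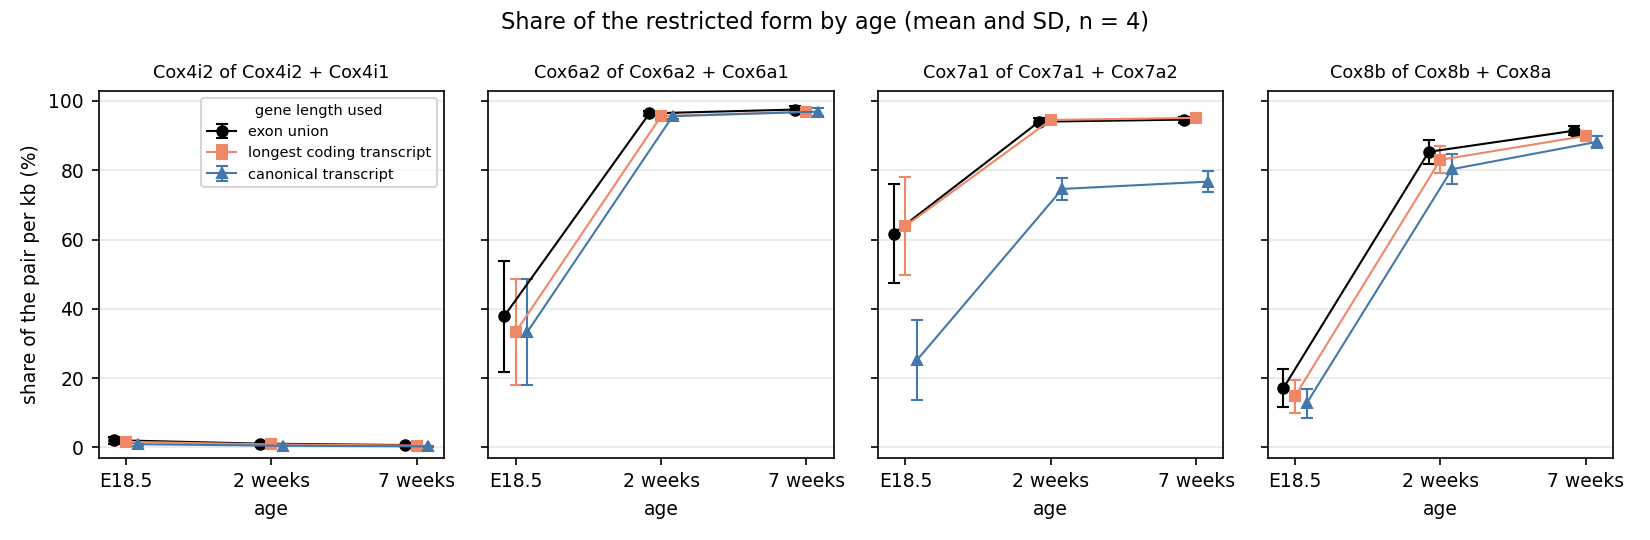
Share of the restricted form in the summed level of its pair per kb (percent, mean and SD of 4 mice) against age, for 3 ways of measuring gene length. The choice of length moves the share of Cox8b at E18.5 from 17.1% to 12.7%, and the share of Cox7a1 at E18.5 from 61.7% over the exon union to 25.2% with canonical transcripts.

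The order of the levels per kb was read with canonical transcripts. For Cox7a2 this length is 814 bases, while the median of its 12 coding transcripts is 5162.5 bases, so its place depends on this choice. At 2 wks it was Cox4i1 at 1774 ± 131 CPM per kb (SD, n = 4), Cox7a1 at 1293 ± 144, Cox6a2 at 825 ± 203, Cox7a2 at 441 ± 77.9, Cox8b at 206 ± 48.7, Cox8a at 49.6 ± 10.3, Cox6a1 at 37.0 ± 5.51 and Cox4i2 at 8.71 ± 0.621. Neighbours in this order did not overlap between mice, except Cox8a and Cox6a1. At 7 wks Cox4i1 overlapped with Cox7a1, Cox7a1 with Cox6a2, Cox6a2 with Cox7a2 and Cox8a with Cox6a1, while Cox7a2 and Cox8b did not overlap. At E18.5 the order was Cox4i1 (251 ± 110), Cox7a2 (198 ± 50.7), Cox7a1 (80.2 ± 69.1), Cox8a (64.2 ± 20.8), Cox6a1 (36.6 ± 17.9), Cox6a2 (18.1 ± 12.4), Cox8b (10.1 ± 5.93) and Cox4i2 (2.02 ± 0.900), and every neighbour overlapped with the next. Over the exon union, Cox7a1 and Cox6a2 came before Cox4i1 at 2 and 7 wks. With the exon union or the longest coding transcript, Cox8b came before Cox7a2 at both of these ages, without overlap between mice. The place of Cox8b rests on its canonical length of 2149 bases, and a shorter length would raise its level and the COX8 sum. The summed level of the COX6a pair rose from 54.7 to 862 CPM per kb between E18.5 and 2 wks, that of COX7a from 279 to 1734, that of COX8 from 74.2 to 256 and that of COX4 from 253 to 1782.

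Other nuclear subunits of complex IV, which have no such partner or a minor one, rose with the paired genes. Of 11 listed, 9 could be tested, and 8 of these rose to 2 wks and 1 fell. Their median log2 change was 2.06, against 2.47 for the 8 paired genes and -0.09 for all genes. Cox7c (2.93, SE 0.29), Cox5b (2.59, SE 0.28) and Cox6c (2.51, SE 0.24) rose the most. Cox6b2, a subunit form known from testis, fell by 1.43 on the log2 scale (SE 0.43, adjusted p = 0.00952) and reached 0.677 ± 0.226 CPM at 7 wks. Without E18.5 replicates 3 and 4 this fall was not called (-0.43, adjusted p = 0.341), and the list had 7 rises and 0 falls. From 2 to 7 wks edgeR called 0 of the 9, and DESeq2 called 1. The unadjusted p was under 0.05 for 1 of them, Cox6b2 (-1.06, SE 0.45, adjusted p = 0.0916).

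Assembly and supercomplex factors, which build complex IV or join it to other complexes, numbered 29, of which 28 were tested. To 2 wks 24 rose and 2 fell, with a median of 1.33. Cox16 (3.36, SE 0.42) and Cox14 (2.94, SE 0.28), factors of the early assembly of the core, and Higd2a (2.83, SE 0.32) rose the most. The falls were Cox17, a copper chaperone, at -0.62 (SE 0.19, adjusted p = 0.0122) and Sco1, which passes copper to the core, at -0.39 (SE 0.15, adjusted p = 0.0389). Neither was called without E18.5 replicate 4 (-0.40, adjusted p = 0.0546, and -0.34, adjusted p = 0.102), without E18.5 replicates 3 and 4, or with the GC trend removed. Sco1 was called in 11 of 25 alternatives and Cox17 in 22. From 2 to 7 wks 2 rose, Tmem177 at 0.73 (SE 0.20, adjusted p = 0.0161) and Coa7 at 0.67 (SE 0.16, adjusted p = 0.00664), and edgeR called 0 as lower. In this interval 8 of the 28 had an unadjusted p under 0.05 in either direction, and DESeq2 called 5. With total-count scaling 13 of the 28 rose and 5 fell to 2 wks, and 0 rose and 5 fell after it. Of all 19276 genes tested, 2550 then rose and 11923 fell to 2 wks, and 948 rose and 5392 fell after it. Tmem177 (0.40, adjusted p = 0.149) and Coa7 (0.33, adjusted p = 0.124) were then not called, and Tmem177 was also not called without 2 wks replicate 1 (0.63, adjusted p = 0.0641).

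**Figure D4:**
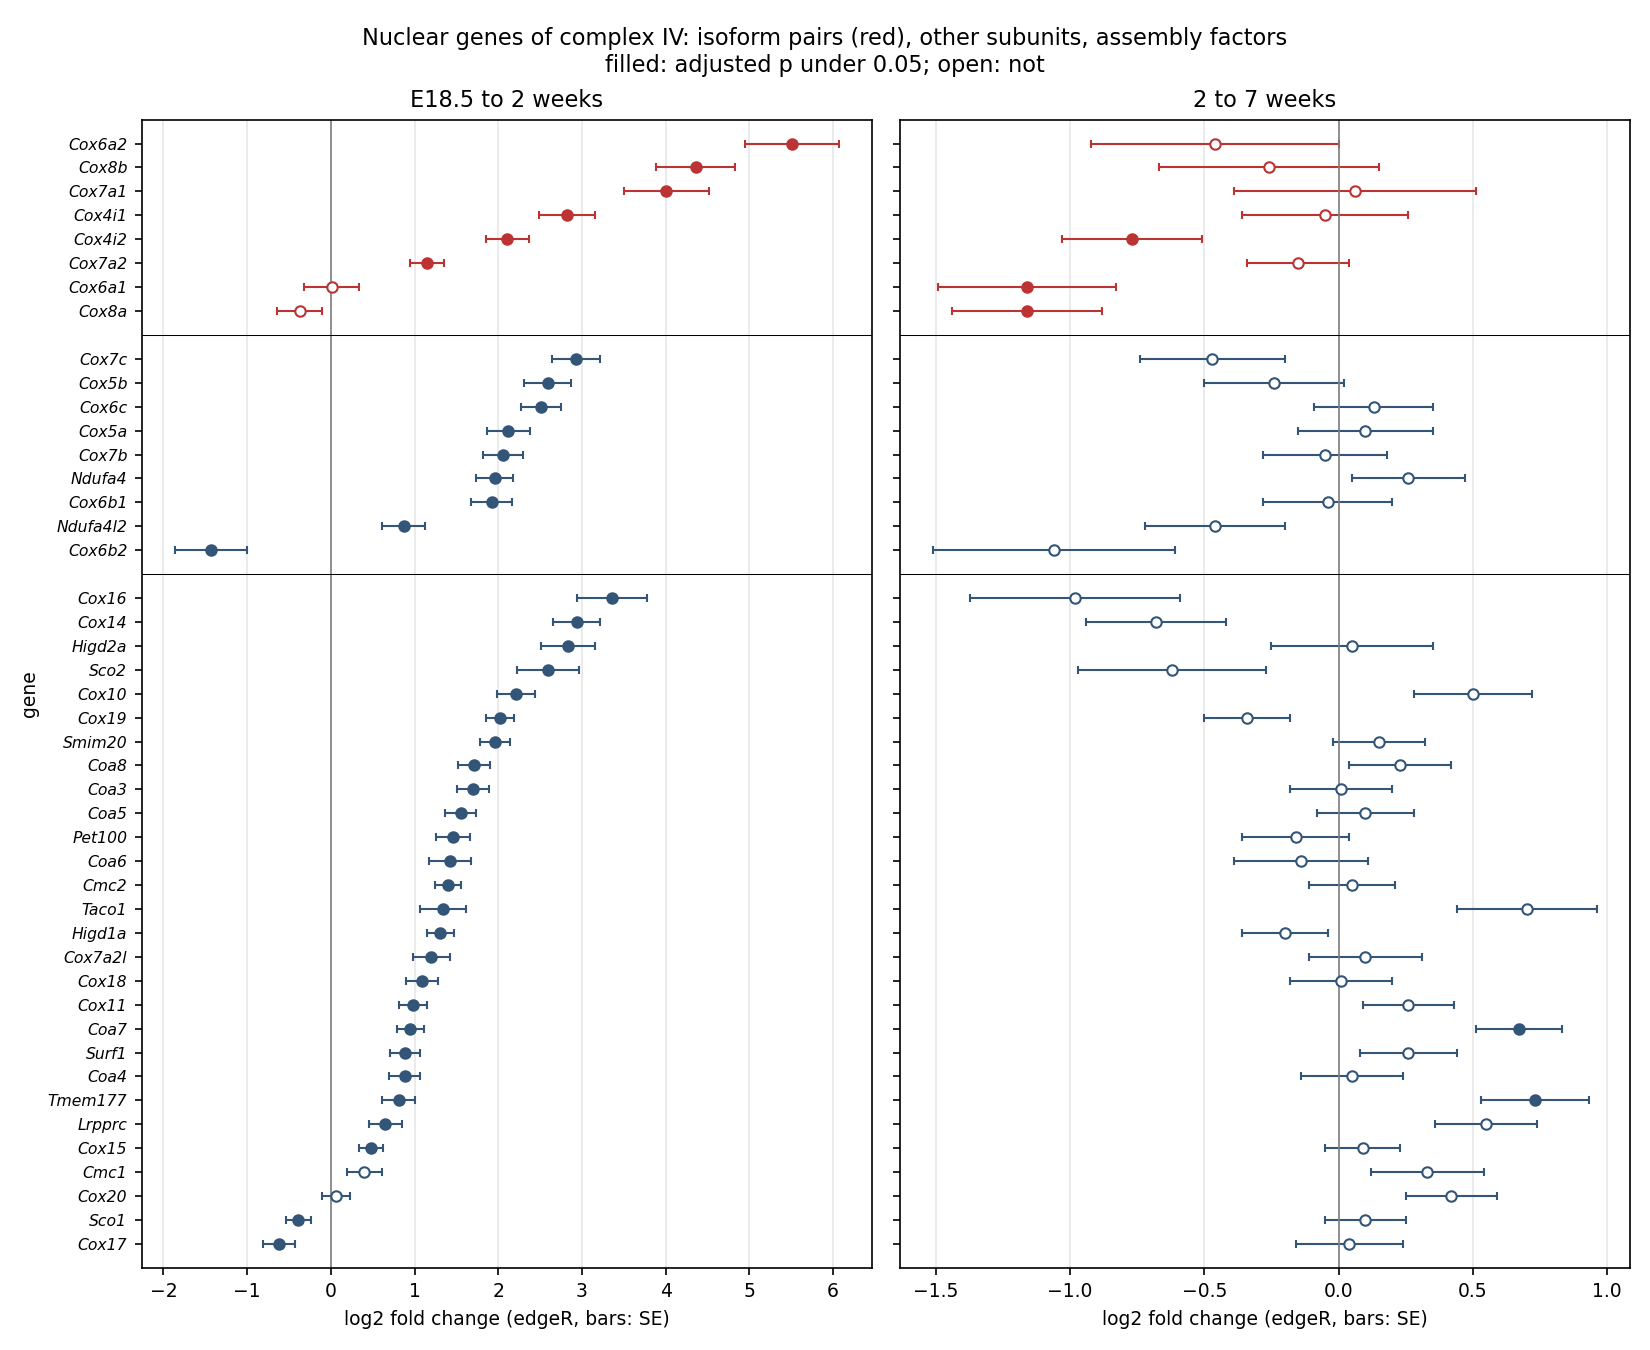
Log2 fold change and SE of the nuclear complex IV genes for each interval, with the isoform pairs in red, then the other subunits and the assembly and supercomplex factors; filled points have an adjusted p under 0.05. The rises to 2 wks reach 5.51 for Cox6a2, and few points are filled from 2 to 7 wks.

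The genes whose level followed each paired gene most closely over the 12 libraries were taken by Pearson correlation of log2 CPM, with 8948 genes eligible (mean log2 CPM 3 or more). The libraries share their ages, so that any genes that rise after birth correlate, and the values are a description. Cox4i1 lay nearest to the complex I subunits Ndufa8 and Ndufs8 (r = 0.999 each) and to Higd2a (r = 0.997). Cox8b lay nearest to Ndufs8 and Ndufb8 (r = 0.998 each) and the ATP synthase subunit Atp5mg (r = 0.997). Cox7a1 lay nearest to the succinate dehydrogenase subunit Sdhc (r = 0.996), Cd300lg (r = 0.995) and the ATP synthase subunit Atp5mf (r = 0.995). Cox6a2 lay nearest to Jsrp1, a protein of the junctional sarcoplasmic reticulum (r = 0.999), Uqcc2, a complex III assembly factor (r = 0.998), and Slc35e4 (r = 0.996). For Cox7a2 these were Micos10 (r = 0.989), Atp5pd (r = 0.983) and Higd1a (r = 0.978), and for Cox4i2 Antkmt (r = 0.991), Tmem101 and Dmpk (r = 0.990 each).

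Cox6a1 and Cox8a stood apart from the other 6 genes in this respect. Their nearest genes were Kmt5c (r = 0.949), Atp6v0e (r = 0.946) and Cox8a itself (r = 0.917) for Cox6a1, and Atp6v0e (r = 0.938), the adenine nucleotide carrier Slc25a5 (r = 0.927) and Myl2, the slow myosin regulatory light chain (r = 0.925), for Cox8a. With the muscle form of its own pair, Cox6a1 had r = -0.130 and Cox8a r = -0.397. Among the other 6 genes, r was 0.810 to 0.995.

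In 5 of the 12 libraries all 8 genes lay on the same side of the mean of their age, as the plot of deviations shows. E18.5 replicate 1 lay below its age in all 8 genes (median -0.82 on the log2 scale) and 7 wks replicate 1 did so too (median -0.60), the 2 libraries low in short transcripts. 7 wks replicate 3 lay above in all 8 (median 0.54), with short transcripts at 0.41. Their part was not tested, and without both low libraries 6 genes rose to 2 wks and 2 in place of 3 fell after it, since Cox4i2 was no longer called (-0.67, adjusted p = 0.0715). E18.5 replicate 4 lay above by a median of 0.63, with short transcripts at 0.06 and adipocyte genes at 1675 CPM. There, Cox7a1 lay 1.55 and Cox8b 1.04 above the age mean, but Cox6a2 lay 0.14 and Cox4i2 0.37 below. In E18.5 replicate 2, 4 genes lay above and 4 below, with Cox6a2 at 1.22 and Cox4i2 at 0.81 against Cox7a1 at -0.62 and Cox7a2 at -0.25. Without E18.5 replicates 3 and 4, 6 genes rose to 2 wks and 3 fell after it, and over both intervals Cox6a1 was not called (-0.56, adjusted p = 0.149, against -1.15, adjusted p = 0.00684, with them). The rise of the ratio to 2 wks was then 4.76 for COX6a, 3.94 for COX7a and 5.15 for COX8, and the change of COX4 was -1.44.

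**Figure D5:**
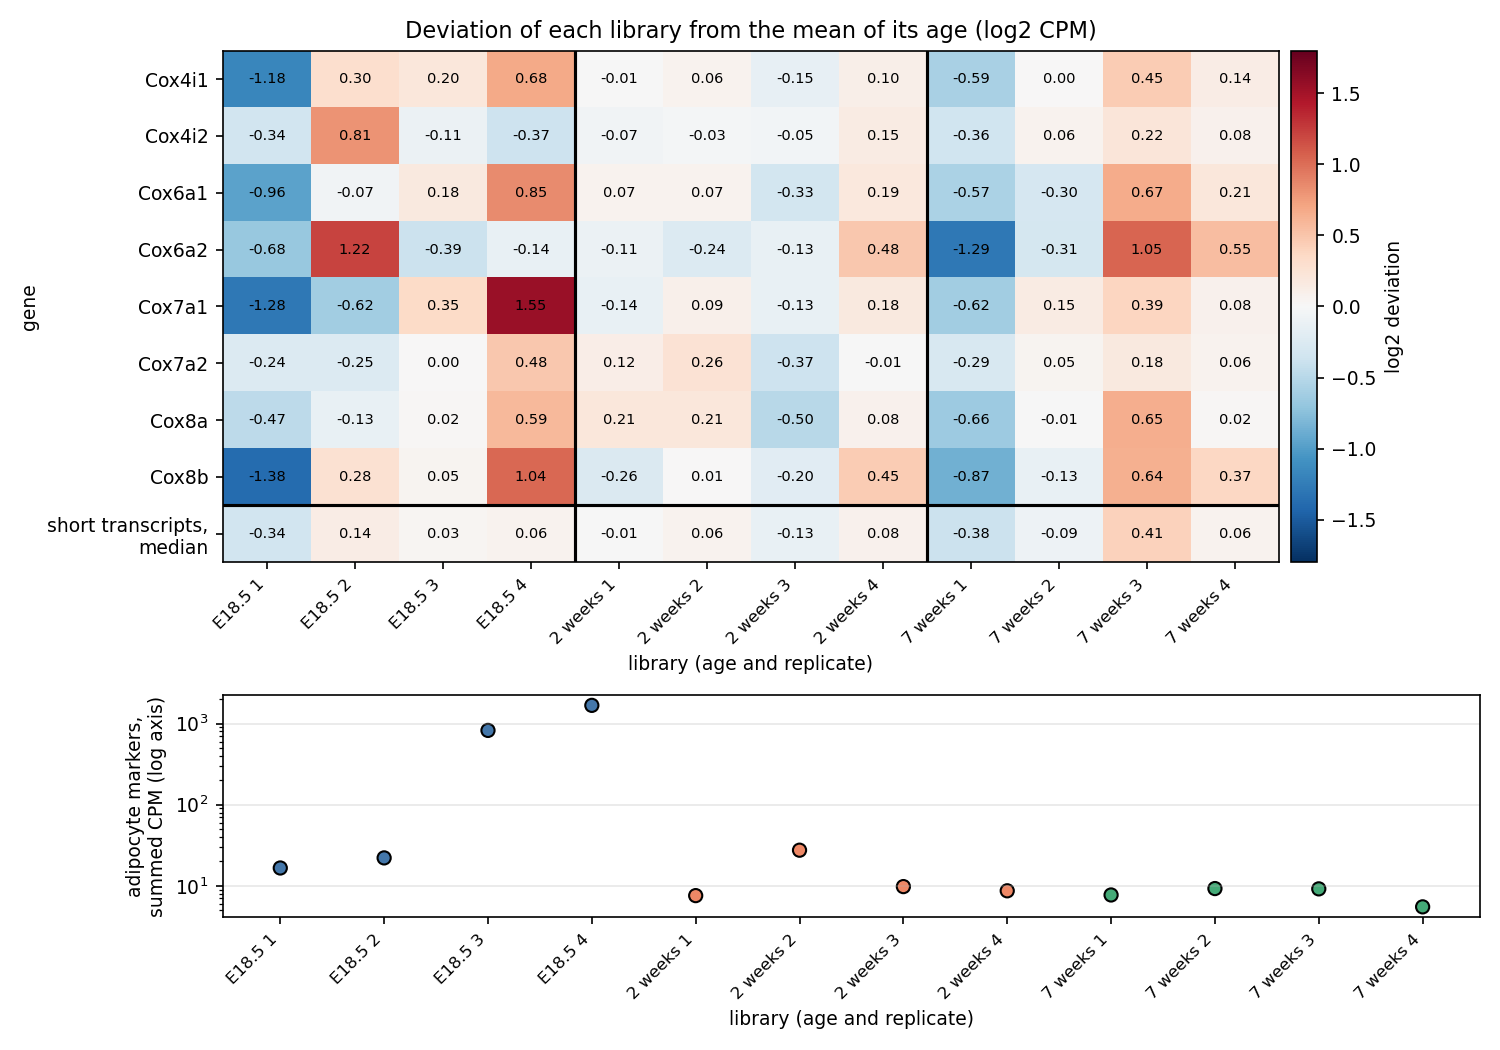
Above, deviation of each library from the mean of its age in log2 CPM for the 8 genes, with the median deviation of short transcripts in the last row; below, the summed CPM of 8 adipocyte genes in each library (log axis). E18.5 replicate 1 and 7 wks replicate 1 are low in all 8 genes, and E18.5 replicates 3 and 4 reach 823 and 1675 CPM of adipocyte genes.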

How the data were processed

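RNA of the TA was prepared with a stranded poly(A) kit and read as pairs. The deposited table holds raw counts per Ensembl gene, which the authors made, per the labels' processing notes, with cutadapt 1.10, STAR 2.5.3a and HTSeq 0.6.1p1 on mm10. The study's methods name GRCm39 instead, and coordinates here are RefSeq's on GRCm38.p6, the build that mm10 denotes. The strand setting and annotation of the counting are not given in the sources used here. Gene names and lengths were taken from GENCODE vM39, which named 51477 of 55450 identifiers, and 113 of 114 listed symbols were found (Lor was not).

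After TMM scaling, edgeR 4.0.16 (R 4.3.3) fitted its quasi-likelihood model to all 12 libraries at once, with a single term for age. filterByExpr left 19276 genes, p-values were adjusted by Benjamini-Hochberg over all of them, and the threshold was 0.05. The biological coefficient of variation was 0.279. The SE of a log2 fold change was derived from the F statistic. Replicates are separate mice. Ratios were tested with exact permutation tests in scipy, and similar transcripts were sought with blastn. Depth was high, so the spread between mice outweighs counting error. The procedure was run on simulated counts in which only a small part of the genes changed. That run does not cover data in which most genes differ between ages, as they do here.

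The genes, lists, tests and alternatives were chosen with earlier results of these data known. Named were all 8 genes, from each complex IV list the 3 largest rises and falls past the threshold in each interval with the mitochondrially encoded genes, the 3 genes nearest to each of the 8 in pattern, and any marker. Alternatives were total-count and upper-quartile scaling, TMM computed with the 20 most abundant genes and those of the mitochondrial genome excluded, DESeq2 1.42.0, other filters, a replicate block, only the 8 libraries compared, GC and length trends removed, another pseudocount, and each library left out. Added after seeing the data were canonical transcript lengths, the 2 pairs of libraries left out together, the comparison between pairs and the counts of the complex IV lists under the alternatives.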

Additional observations from a re-analysis of the deposited data

Results flagged for a closer look

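In 36 sets of 4 libraries (8 genes and 4 form ratios at 3 ages), 3 single libraries lay far from the others of their age, with a gap to the nearest library that exceeded the critical value of Dixon's test. Chance gives this in about 1 set in 20. Cox6a2 measured 24.8 CPM in E18.5 replicate 2, against 6.63 to 9.67 CPM in the others (gap 0.832 of the range). Cox4i2 measured 2.54 CPM in the same library, against 1.11 to 1.34 CPM (gap 0.844). The myofibre sum of this library was 17282 CPM, and its part was not tested. Cox6a2 measured 765 CPM in replicate 4 of the 2 wks mice, against 466 to 508 CPM (gap 0.861).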

How the results depend on the processing

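Of 760 values of single genes under the alternatives, 712 kept their direction and their side of the threshold, 17 lost a call, 8 gained one and 23 changed sign. The changes of sign were in values not called before or after, except that Cox6a1 to 2 wks became a call in 2 of them, and Cox7a2 over both intervals lost its call with total-count scaling. The cause of these changes was not tested. Deviations from the age mean in same-numbered libraries of different ages had correlations of -0.142 to 0.284. The highest was between E18.5 replicate 1 and 7 wks replicate 1, the libraries low in short transcripts. Whether the replicate number marks a shared batch was not tested. With the number as a replicate block 6, 3 and 8 of the 8 genes were called to 2 wks, from 2 to 7 wks and over both, as without it. With the block the interval difference of Cox6a1 was called (1.41, adjusted p = 0.0391).

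From 2 to 7 wks, the number of the 8 genes called was 1 in place of 3 with the GC trend removed and 1 to 3 with 1 library left out, the value of 1 coming without 7 wks replicate 1 or replicate 2. Of the 9 other subunits, against 0, the calls were 3 with total-count scaling, 2 with only the 8 libraries compared, 1 with DESeq2, 1 without both adipocyte-high libraries, and 0 to 1 with 1 library left out. Of the assembly factors, against 2, they were 5 with total-count scaling (0 higher and 5 lower, where the 2 were higher) and 5 with DESeq2 (4 higher and 1 lower), 6 with the GC trend removed and with only the 8 libraries, and 4 with either length trend removed or either pair of libraries left out. With 1 library left out they were 1 to 5. Of the mitochondrially encoded core genes, against 2, 1 was called with total-count scaling and 1 to 2 with 1 library left out. Those 2 were mt-Co1 and mt-Co3, and the counts of mt-Co3 are not read as levels. At 7 wks mt-Co3 measured 391 and 356 CPM in replicates 1 and 2 but 8.29 and 16.4 CPM in replicates 3 and 4. Over both intervals, total-count scaling gave 13 calls of the assembly factors in place of 27, and 0 for Cycs in place of 1.

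The change of Cox6a1 to 2 wks (0.01) became -0.91 with total-count scaling, -0.12 with upper-quartile scaling, -0.04 with DESeq2 and without a filter, -0.10 with at least 10 counts in every library, -1.04 (adjusted p = 0.00509) with the GC trend removed, -0.25 and -0.23 with the length trends removed, and -0.22 without both libraries low in short transcripts. With 1 library left out it was -0.23 to 0.36. The change of Cox4i1 from 2 to 7 wks (-0.05) became 0.17 (GC), 0.11 and 0.06 (length, canonical length) and 0.11 (libraries low in short transcripts left out), and -0.21 to 0.11 with 1 library left out. That of Cox7a1 (0.06) became -0.29 with total-count and -0.05 with upper-quartile scaling, and -0.08 to 0.23 with 1 library left out. Cox7a2 over both intervals became -0.28 with total-count scaling. With the GC trend removed the interval difference was -0.31 for Cox6a1 and -0.69 for Cox8a.

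Without both adipocyte-high libraries, the change of the ratio to 2 wks was 4.76 for COX6a, 3.94 for COX7a and -1.44 for COX4. To 7 wks it was 4.11 for COX7a and -2.13 for COX4, and the difference between COX6a and COX8 was -0.39. Depth was no limit for these genes, whose lowest count was 149. The annotated length limits comparison of levels between genes, and 51 of 96 levels and shares moved by more than the spread between mice with another length or scaling.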

Other observations

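The 4 mice of 2 wks fell into the same pairs in several measures. Replicates 3 and 4 had log2 form ratios of 4.92 and 5.0 for COX6a, 0.91 and 0.87 for COX7a and 4.28 and 4.35 for COX8. Replicates 1 and 2 had 4.53 and 4.41, 0.42 and 0.51, and 3.52 and 3.79. Myoglobin (Mb), the oxygen-binding protein of muscle, measured 4087 and 6383 CPM in replicates 3 and 4 and 655 and 826 CPM in replicates 1 and 2. The fast myosin gene Myh1 measured 12407 and 24693 CPM against 4993 and 5651 CPM. Myh4, the fastest myosin, measured 45976 and 27826 CPM against 43148 and 37464 CPM, without such a split. The labels give these mice the same age.

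The mitochondrially encoded core subunit mt-Co1 measured 15808 ± 6099 CPM (SD, n = 4) at E18.5, 48280 ± 11142 CPM at 2 wks and 98432 ± 9234 CPM at 7 wks. It rose by 1.61 (SE 0.31, edgeR adjusted p = 0.000424) and then by 1.03 (SE 0.30, adjusted p = 0.0226), so it was called higher in the later interval too, in which none of the 8 paired genes was. The later rise was not called with total-count scaling (0.70, adjusted p = 0.0563), nor without 2 wks replicate 1 (0.91) or 2 (0.95) or 7 wks replicate 2 (0.99) or 4 (1.01), with an adjusted p of at most 0.0754. Counts on mt-Co2 were 0.435 to 11.3 CPM and on mt-Co3 0.521 to 391 CPM in any library, far below mt-Co1. They are not read as levels, and the cause was not tested. Cycs, somatic cytochrome c, rose by 1.55 to 2 wks (SE 0.25, adjusted p = 0.000111), from 254 ± 112 to 744 ± 67.7 CPM.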
